A study of Mus musculus with 14 samples.

Results

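The nuclear genes for respiratory complexes III, IV and V and for cytochrome c were followed in ileal mucosa from WT and from IKO mice. The members were the protein-coding rows of the deposited count table whose symbol begins with Uqcr, Cox4 to Cox8 or Atp5, or is Cyc1 or Cycs. The symbols picked out 46 of 54532 rows, and the 40 rows with at least 100 counts summed over the 14 mice were kept. They hold 9 subunits of complex III, 13 genes of complex IV, 16 subunits of complex V, cytochrome c itself (Cycs) and Atp5s. The last of these encodes factor B, a regulator that binds ATP synthase and is not one of its subunits, so 39 genes are subunits or the carrier. The 6 rows left out were Cox4i2 with 50 counts, Cox6a2 with 43, Cox8b with 58, and Cox7b2, Cox8c and a second row named Atp5o with 0.

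The WT mice carried NCoR1 flox/flox alleles. The IKO mice carried the same alleles with a Cre recombinase driven by the villin promoter, which is active in intestinal epithelial cells (IECs). All were male and ate a high fat diet (HFD) for 15 weeks, and the study's methods give an age of 7 to 8 weeks when feeding began. Each genotype had 7 mice with 1 library each, of 14749669 to 21557468 counts. The sample labels name IECs, whereas the mucosa was scraped and not sorted. Enterocyte markers summed to 16820 to 44420 CPM (normalized counts, with library sizes scaled by the trimmed mean of M values, TMM) in WT mice, lowest in WT 7, WT 1 and WT 3, and to 32390 to 44360 CPM in IKO mice. None of the 8 was called. Smooth muscle markers summed to 10840 CPM in WT 4 and to between 3.96 and 794.5 in the others. Ncor1 lay between 106.4 and 194.5 CPM in WT and between 31.7 and 64.0 in IKO mice, without overlap (log2 fold change -1.41, edgeR adjusted p = 0.00051). Genes encoded in mitochondrial DNA amounted to 50.3% of all counts for IKO 4 and 23.9% for WT 3, against 3.49% to 10.3% in the other mice. In this bulk tissue, fewer cells of a type and less RNA per cell cannot be told apart.

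Complex III of the inner mitochondrial membrane takes electrons from ubiquinol and hands them to cytochrome c, a small soluble protein. Complex IV, cytochrome c oxidase, passes them on to oxygen, and both complexes pump protons. Complex V, ATP synthase, lets the protons flow back through a ring of c subunits and uses the rotation to make ATP in its F1 head. A few subunits are made from mitochondrial DNA inside the organelle, and the members described here are made from nuclear genes and imported. In the gut, enterocytes spend much of this ATP on nutrient transport and on packaging absorbed fat. NCoR1 is a corepressor that nuclear receptors recruit to keep target genes silent.

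Of the 40 members, 38 had a positive log2 fold change in IKO mice and 2 a negative one (Cox6b2 and Atp5s). Over all 13846 genes tested, 43.5% were positive. Genes were called by the quasi-likelihood test of edgeR at an adjusted p under 0.05 (Benjamini-Hochberg, over every gene tested). By it, 13 members rose and 1, Cox6b2, fell. The share called higher was 4.38% and the share called lower 4.28% among all genes tested, so the 32.5% of members that rose exceeded the background. Without adjustment, 33 members, among them the lower Cox6b2 and Atp5s, had a p under 0.05 in edgeR, as did 4213 of all 13846 genes tested. Cell type markers also differed in median log2 fold change, though edgeR called none of them. The median was 0.26 over the 8 enterocyte markers and -1.04 over the 4 stem cell markers (sums of 57.7 to 178.7 CPM in WT and 33.2 to 107.5 CPM in IKO mice). Larger medians came from outside the epithelium, at -3.13 for smooth muscle, -1.75 for fibroblast, -1.35 for striated muscle and 1.20 for erythroid markers. The part of these cell types in the members' levels was not tested. In 5 members (Cycs, Uqcrfs1, Uqcrc1, Cox5a and Atp5f1) every IKO value lay above every WT value, against 1.83% of all genes tested. The median log2 fold change was 0.70 for the members and -0.09 for all genes tested.

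Leaving out IKO 4 and WT 3, the libraries rich in mitochondrial transcripts, left 6 members higher (Cycs, Uqcrc1, Uqcrfs1, Cox5a, Cox7a2 and Atp5l). The same 6 stayed called in each of the 14 fits that left out 1 mouse, while the count of members called higher fell to 6 without WT 7, 7 without IKO 1 and 8 without IKO 5. With library sizes scaled by total counts only, 1 member (Cox7a1) rose and 2 (Cox6b2 and Atp5s) fell. The TMM factors themselves moved with genotype, at 0.931 to 1.53 in WT and 0.579 to 0.967 in IKO mice. Scaling by total counts put the median of all genes at -0.49 and of the members at 0.29. The distance between them was 0.78, against 0.79 with TMM. A change of library scaling moves all genes by nearly the same amount, so this distance could hardly change and is no check.

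**Figure D1:**
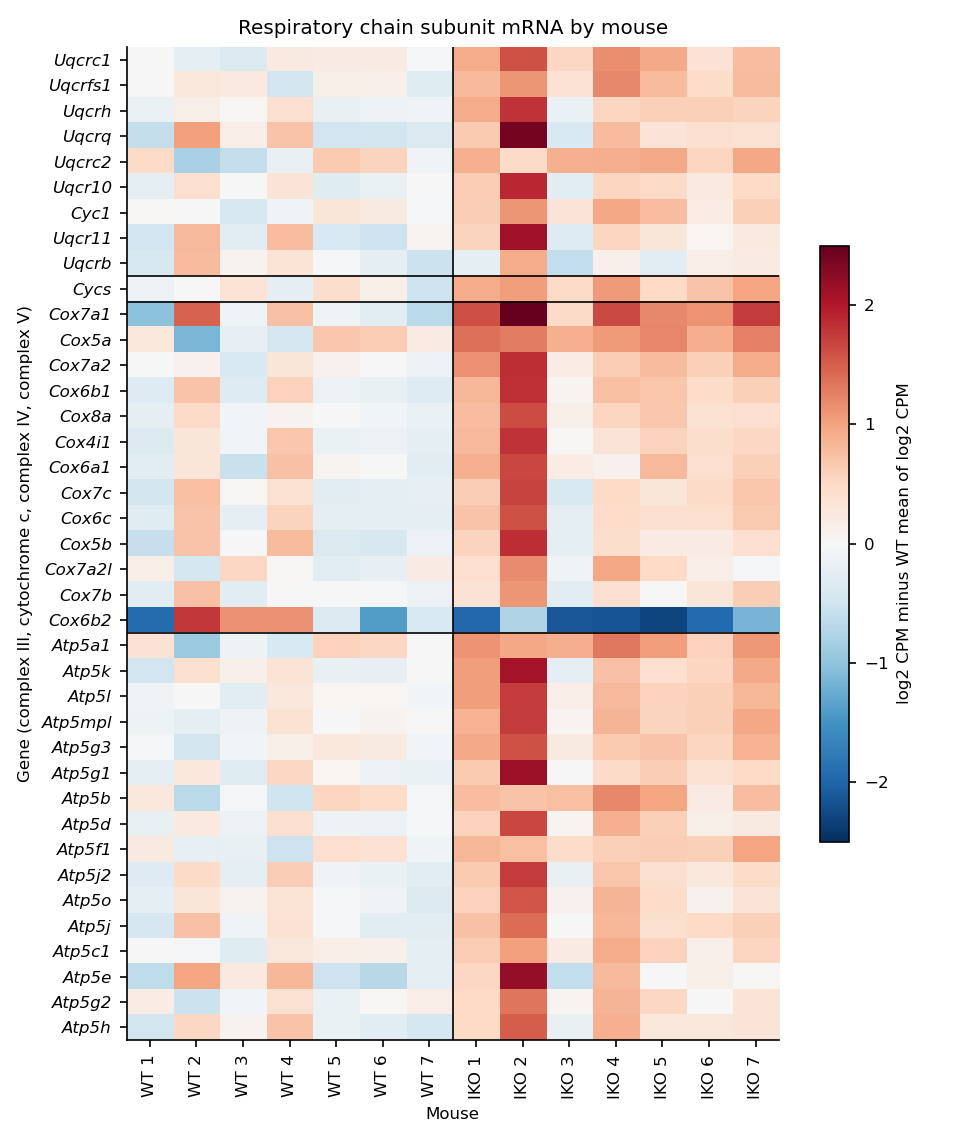
Level of the 38 subunit genes and Cycs in each mouse, as log2 CPM minus the mean of log2 CPM over the WT mice (red higher, blue lower; color limits at 2.5 on the log2 scale). Rows are grouped by complex and ordered by fold change, columns are the 7 WT and 7 IKO mice. IKO 2 held the highest IKO value of 32 of the 39 genes and IKO 3 the lowest of 29.

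In complex III, 9 of 9 subunits had a positive log2 fold change, with a median of 0.72, and 3 rose. These were Cyc1 and Uqcrfs1, the nuclear subunits that carry electrons, and Uqcrc1, a core protein on the matrix side. Uqcrc1, on chromosome 9 from 108936633 to 108949623, lay at 244.1, 314.7 and 365.9 CPM (lowest, median and highest) in WT and at 400.1, 596.9 and 948.5 CPM in IKO mice. The genotypes did not overlap, and the difference was the largest in the complex (log2 fold change 0.93, standard error 0.20, adjusted p = 0.013). Uqcrfs1, the Rieske iron-sulfur protein on chromosome 13 from 30540308 to 30545362, ranged over 165.0, 248.7 and 272.6 CPM in WT and over 291.8, 394.5 and 525.2 CPM in IKO mice. Again no IKO mouse fell among the WT values (log2 fold change 0.80, standard error 0.18, adjusted p = 0.017). Cyc1, cytochrome c1, which docks cytochrome c and lies on chromosome 15 from 76343523 to 76346260, gave 195.9, 256.5 and 319.6 CPM in WT against 292.6, 394.6 and 554.9 CPM in IKO mice. Here 6 of 7 IKO mice exceeded the highest WT mouse and IKO 6 did not (log2 fold change 0.67, standard error 0.18, adjusted p = 0.033). The call of Cyc1 ended in 8 of the 14 fits with 1 mouse left out, at an adjusted p of up to 0.069.

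Uqcrc2, the other core protein, lay at 94.3, 155.6 and 257.8 CPM in WT and at 228.8, 307.1 and 322.5 CPM in IKO mice. It missed the threshold (log2 fold change 0.72, standard error 0.23, adjusted p = 0.058), with 5 of 7 IKO mice above the highest WT mouse. IKO 2, the highest IKO mouse for most members, was the lowest IKO mouse for Uqcrc2. In edgeR 2 of the 5 small subunits without redox groups (Uqcrb, Uqcrh, Uqcrq, Uqcr10 and Uqcr11) had an unadjusted p under 0.05, against 4213 of all 13846 genes tested. None of the 5 passed the edgeR test after adjustment, with adjusted p between 0.055 and 0.91, while DESeq2 called Uqcrh higher (adjusted p = 0.012). Among them Uqcrb had the smallest log2 fold change of the complex, 0.05, with a standard error of 0.25 (adjusted p = 0.91). Its WT values were 108.7, 154.3 and 272.9 CPM and its IKO values 103.8, 172.9 and 301.6 CPM, so the ranges nearly coincided. The sign of Uqcrb was not stable, and it turned to -0.17 once the trend on gene length was removed.

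Cycs, cytochrome c, on chromosome 6 from 50562563 to 50566538, gave 183.5, 263.5 and 358.1 CPM in WT and 366.1, 500.4 and 550.2 CPM in IKO mice. The lowest IKO mouse, IKO 3, stood just above the highest WT mouse, WT 5. Cycs was 1.74-fold higher in IKO mice (log2 0.80, standard error 0.18, adjusted p = 0.017).

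In complex IV, 12 of 13 genes had a positive log2 fold change, with a median of 0.71 over the complex, and 3 rose while 1 fell. The nuclear subunits surround a catalytic core that is encoded in mitochondrial DNA. Cox5a, a subunit of the matrix side on chromosome 9 from 57521274 to 57532426, lay at 46.8, 119.1 and 165.7 CPM in WT and at 193.1, 241.8 and 270.6 CPM in IKO mice. Its genotypes did not overlap, and it was 2.06-fold higher in IKO mice (standard error 0.24 on the log2 scale, adjusted p = 0.018). Cox7a2, the form of subunit 7A found in most tissues, on chromosome 9 from 79755361 to 79759878, lay at 100.2, 131.6 and 161.5 CPM in WT and at 148.5, 225.9 and 465.9 CPM in IKO mice. For Cox7a2, IKO 3 alone stayed within the WT range (log2 fold change 0.95, standard error 0.22, adjusted p = 0.020).

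The other broad forms did not pass the edgeR test. DESeq2 called Cox4i1, Cox6a1, Cox6b1 and Cox8a higher, at adjusted p of 0.039, 0.039, 0.028 and 0.011, and did not call the rest of them. The study named Cox6a1 and Cox8a among its differentially expressed genes. The values below are from edgeR. Cox4i1, a large nuclear subunit with a part in regulation by ATP, lay at 459.5, 539.2 and 950.5 CPM in WT and at 607.0, 849.0 and 2066 CPM in IKO mice (log2 fold change 0.71, standard error 0.27, adjusted p = 0.097). Cox5b, the zinc-binding subunit, lay at 121.6, 163.0 and 313.0 CPM in WT and at 154.9, 241.3 and 651.1 CPM in IKO mice (log2 fold change 0.55, standard error 0.32, adjusted p = 0.25). The highest WT values of both genes came from WT 4 and then WT 2, at 950.5 and 728.6 CPM for Cox4i1 and at 313.0 and 298.8 CPM for Cox5b. Those of WT 4, and for Cox5b that of WT 2, exceeded most of the IKO mice. Cox6a1, Cox6b1, Cox6c, Cox7b, Cox7c and Cox8a had log2 fold changes from 0.38 to 0.78 and adjusted p from 0.055 to 0.25. Cox7a2l, which helps complexes III and IV join into supercomplexes, also missed the threshold (0.48 on the log2 scale, standard error 0.22, adjusted p = 0.16).

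**Figure D2:**
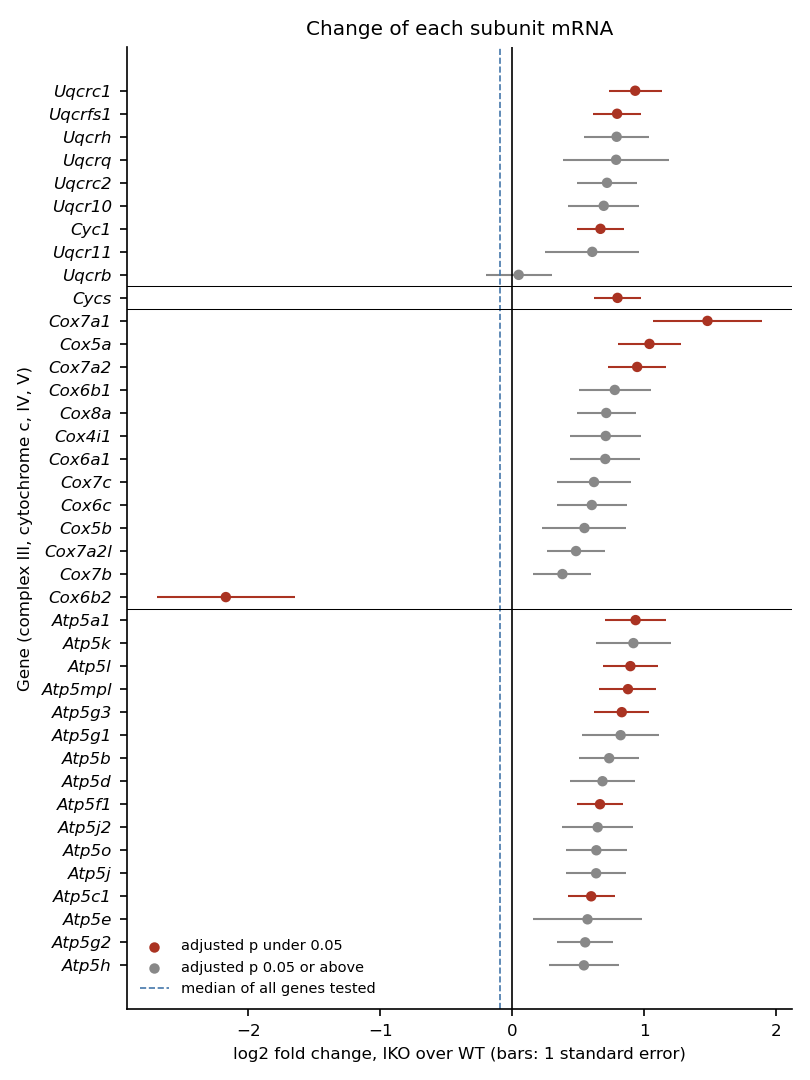
Log2 fold change of IKO over WT for each of the 39 genes, with bars of 1 standard error from the edgeR fit. Red points have an adjusted p under 0.05, gray points do not, and the dashed line marks the median of all genes tested at -0.09. The points lie to the right of 0 except Cox6b2 at -2.17, and Uqcrb sits next to 0.

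Several complex IV subunits have a second gene used in muscle, lung or testis. Cox7a1, the heart and skeletal muscle form of subunit 7A, lies on chromosome 7 from 30184144 to 30186078. Its values were 27.3, 51.6 and 155.3 CPM in WT and 78.3, 170.1 and 420.9 CPM in IKO mice, with 4 of 7 IKO mice above the highest WT mouse. No other member had a larger log2 fold change than this gene, at 1.48 with a standard error of 0.41 (adjusted p = 0.040). The call ended in 10 of the 14 fits with 1 mouse left out, at an adjusted p of up to 0.078. The highest WT value of Cox7a1 was in WT 2, where the smooth muscle markers summed to 11.9 CPM and the striated muscle markers to 2.06 CPM. The next highest was in WT 4, with 10840 and 95.7 CPM of those markers and 93.1 CPM of Cox7a1, above 51.7 CPM in WT 3. Among IKO mice, Cox7a1 was highest in IKO 2, with 390.5 CPM of smooth muscle and 7.19 CPM of striated muscle markers. IKO 1 had the most smooth muscle markers of the IKO mice, 794.5 CPM, and 170.1 CPM of Cox7a1. IKO 7 and IKO 4 came next after IKO 2, at 188.4 and 175.0 CPM of Cox7a1, with 6.14 and 30.1 CPM of smooth muscle markers. The part of muscle tissue in the level of Cox7a1 was not tested.

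Levels of 2 genes were compared per length, as FPKM, the counts per kilobase of gene model after scaling by library. Cox7a1 took 43.4% ± 12.8 (SD, n = 7) of the summed FPKM of Cox7a1 and Cox7a2 for WT, and IKO mice had 54.4% ± 5.31 (SD, n = 7). The WT shares ran from 26.8% to 66.2% and the IKO shares from 48.2% to 61.5%, so the IKO range lay inside the WT range. The sum of both forms was 256.0 FPKM on average in WT and 612.1 in IKO mice.

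Cox6b2, the testis form of subunit 6B, on chromosome 7 from 4751792 to 4753094, was the member that fell. It lay at 1.68, 4.97 and 21.6 CPM in WT and at 1.29, 1.64 and 3.77 CPM in IKO mice (log2 fold change -2.17, standard error 0.52, adjusted p = 0.022). The high WT values were those of WT 2, WT 3 and WT 4, while WT 1 and WT 6 were within the IKO range. The call ended without IKO 1 and without IKO 5, at adjusted p of 0.051 and 0.055, and with IKO 4 and WT 3 left out. It was lost in 8 of 28 alternatives in all, and limma-voom with sample weights gave a log2 fold change of -1.05 (adjusted p = 0.12). Cox6b1, the broad form, made up at least 95.5% of the summed FPKM of the pair in every mouse, and the share of Cox6b2 was 2.08% ± 1.43 (SD, n = 7) for WT, with 0.305% ± 0.0993 (SD, n = 7) for IKO mice.

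Cox4i2, Cox6a2 and Cox8b, forms best known from lung, heart or skeletal muscle, held at most 0.353%, 0.0975% and 0.824% of their families in any mouse. Of the 50 counts of Cox4i2, 36 came from WT 4, as did 44 of the 58 counts of Cox8b. WT 4 was also the mouse with the high smooth muscle markers, and the part of that tissue in these counts was not tested. Cox7b2 and Cox8c had no count in 14 mice.

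**Figure D3:**
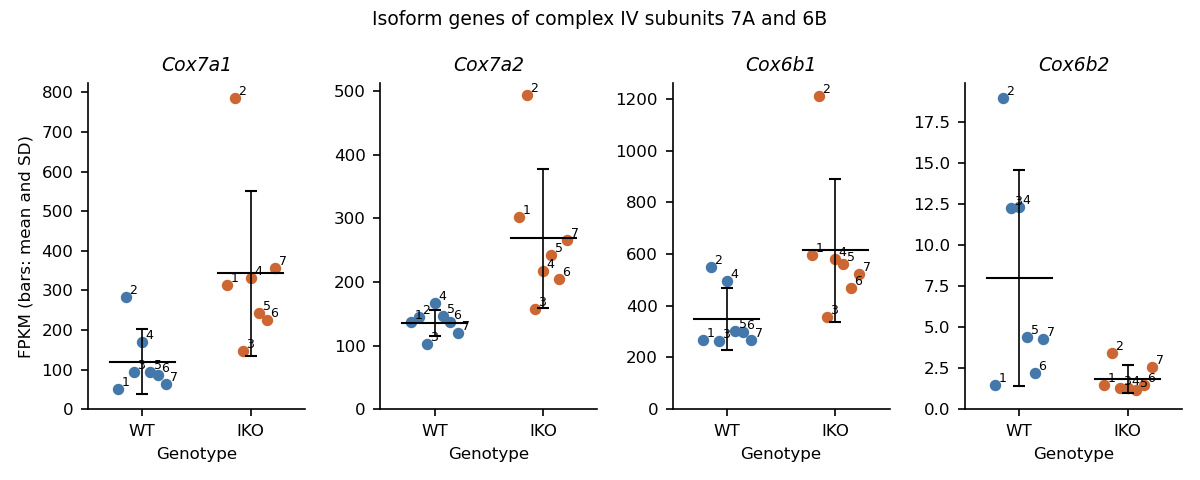
FPKM of Cox7a1, Cox7a2, Cox6b1 and Cox6b2 in each mouse, with the mouse number beside each point, the mean and the SD (n = 7 per genotype). Each panel has its own axis from 0. Cox7a1 and Cox7a2 were both higher in IKO mice, and the Cox6b2 level, low throughout, was highest in WT 2, WT 3 and WT 4.

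In complex V, 16 of 16 subunits had a positive log2 fold change, with a median of 0.67, and 6 rose. The range was narrow, from 0.54 for Atp5h to 0.94 for Atp5a1. The α and β chains form the catalytic hexamer of F1. Atp5a1, the α chain, lay at 463.3, 880.6 and 1325 CPM in WT and at 1316, 1831 and 2194 CPM in IKO mice (log2 fold change 0.94, standard error 0.23, adjusted p = 0.026). Its call ended in 4 of the 14 fits with 1 mouse left out, at an adjusted p of up to 0.056. Atp5b, the β chain that holds the catalytic sites, lay at 762.7, 1185 and 1769 CPM in WT and at 1408, 2075 and 2803 CPM in IKO mice (log2 fold change 0.74, standard error 0.23, adjusted p = 0.055). For both chains WT 2 was the lowest mouse, WT 5 the highest WT mouse, and IKO 6 the 1 IKO mouse below WT 5. Atp5c1, the γ chain of the rotor on chromosome 2 from 10056016 to 10080510, rose from a WT median of 329.7 CPM to an IKO median of 487.9 CPM (log2 fold change 0.60, standard error 0.18, adjusted p = 0.048), and this call was lost in 12 of the 14 fits with 1 mouse left out. The δ and ε chains of the rotor, Atp5d and Atp5e, did not pass the edgeR test, while DESeq2 called Atp5d higher (adjusted p = 0.028).

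The c-ring is encoded by 3 genes whose mature proteins are the same. Atp5g3, on chromosome 2 from 73908447 to 73911326, lay at 313.8, 414.9 and 514.7 CPM in WT and at 502.1, 702.8 and 1297 CPM in IKO mice, with 6 of 7 IKO mice above all WT mice (log2 fold change 0.83, standard error 0.21, adjusted p = 0.026). Its call ended in 3 of the 14 fits, at an adjusted p of up to 0.057. Atp5g1 lay at 105.5, 118.1 and 186.7 CPM in WT and at 131.3, 183.6 and 575.4 CPM in IKO mice (log2 fold change 0.82, standard error 0.29, adjusted p = 0.080). Atp5g2 lay at 62.2, 92.5 and 116.9 CPM in WT and at 89.2, 126.6 and 226.4 CPM in IKO mice (log2 fold change 0.55, standard error 0.21, adjusted p = 0.099). Per length, Atp5g3 supplied 70.7% ± 3.46 (SD, n = 7) of the c-ring FPKM for WT, with 73.8% ± 3.09 (SD, n = 7) for IKO mice. Atp5g2 supplied 19.5% ± 2.70 and 16.8% ± 2.71, and Atp5g1 9.82% ± 2.63 and 9.40% ± 2.0. The shares of each gene overlapped between the genotypes.

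Of the 4 peripheral stalk subunits, which hold the F1 head still, Atp5f1 rose. It lies on chromosome 3 from 105942698 to 105960099, with 185.1, 243.8 and 353.2 CPM in WT and 361.4, 404.5 and 521.3 CPM in IKO mice (log2 fold change 0.67, standard error 0.17, adjusted p = 0.031). The genotypes did not overlap, though the call ended in 6 of the 14 fits with 1 mouse left out. Atp5h, Atp5j and Atp5o had log2 fold changes of 0.54 to 0.64 and adjusted p of 0.084 to 0.18.

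Of 4 small membrane subunits near the c-ring, several of which hold pairs of ATP synthases together, 2 rose. Atp5l (subunit g, chromosome 9 from 44912557 to 44920742) lay at 110.1, 133.0 and 160.9 CPM in WT and at 148.6, 231.6 and 445.6 CPM in IKO mice (log2 fold change 0.90, standard error 0.21, adjusted p = 0.020). Atp5mpl (a small proteolipid, chromosome 12 from 111961375 to 111966977) lay at 84.7, 99.8 and 130.5 CPM in WT and at 104.1, 179.3 and 335.4 CPM in IKO mice (log2 fold change 0.88, standard error 0.22, adjusted p = 0.024). IKO 3 was the only IKO mouse within the WT range for either gene, and the call of Atp5mpl ended without WT 7 (adjusted p = 0.052). Atp5k (subunit e) missed the threshold at 0.92 on the log2 scale (standard error 0.28, adjusted p = 0.053), and Atp5j2 (subunit f) at 0.65 (standard error 0.27, adjusted p = 0.13).

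The count of 6 in complex V depended on single mice, and was 3 without WT 4, 1 without WT 7, 2 without IKO 1 and 3 without IKO 5. Without IKO 4 and WT 3 together it was 1. In complex IV, the count of 3 was 5 without WT 2. Factor B, Atp5s, had 5.52, 5.91 and 9.58 CPM in WT and 3.16, 4.53 and 6.37 CPM in IKO mice (log2 fold change -0.55, standard error 0.21, adjusted p = 0.11).

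Over the whole table the fold change rose with the level of a gene, and the members are abundant transcripts. Among genes other than the members, the median log2 fold change was -0.61 at a mean log2 CPM of up to 0, 0.25 between 6 and 7, 0.36 between 7 and 8, 0.41 between 8 and 9 and 0.47 between 9 and 10. The members in the last 4 of these ranges had medians of 0.76, 0.64, 0.70 and 0.71. In the range from 7 to 8, 4 of 15 members and 13.7% of other genes were called higher, and from 8 to 9, 6 of 14 members and 19.6% of other genes. With the level trend of each library removed, a choice made after seeing the data, the median of the members was 0.26 and edgeR called 0 of them higher and 0 lower, with 10 at an unadjusted p under 0.05. Transcript length moved with the fold change as well, from 0.13 over the shortest genes (up to 2013 bases) to -0.31 over the longest (above 7136 bases), when all genes were split into 5 classes by length. The shortest class held 25 members, with a median of 0.68.

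**Figure D4:**
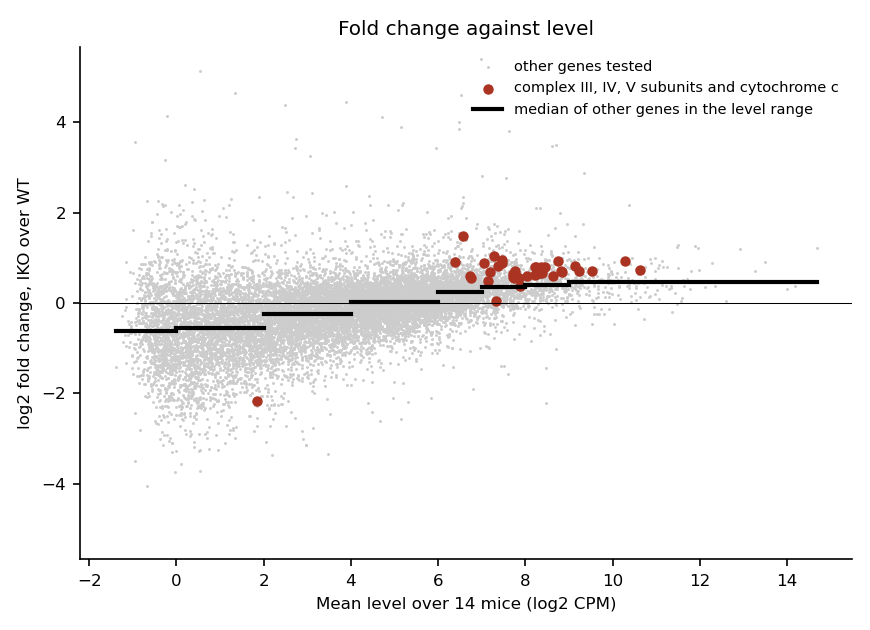
Log2 fold change of IKO over WT against mean level for the 13846 genes tested. Gray points are other genes, red points the 39 subunit and cytochrome c genes, and black bars the median of the other genes in each range of level. The black bars climb from -0.61 at low to 0.46 at the highest level, and most red points lie above the bar of their range.

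The mice of each genotype differed from each other. The median over the 39 genes of the log2 level relative to the WT mean ran from -0.25 to 0.35 in WT mice, with WT 4 and WT 2 the highest. WT 4 was the mouse with the smooth muscle markers, whose part in its levels was not tested, and without it the median log2 fold change of the members was 0.74. In IKO mice it ran from 0.06 in IKO 3 to 1.60 in IKO 2, and 6 of 7 IKO mice were above WT 4. IKO 2 exceeded the highest WT value in 37 of the 39 genes, IKO 1 in 29, IKO 4 in 27 and IKO 5 in 23. IKO 7 did so in 18, IKO 6 in 11 and IKO 3 in 9. Summed over the 39 genes, the level was 9034 to 11734 CPM in WT and 12211 to 28013 CPM in IKO mice, without overlap. This sum is weighted by the abundant Atp5a1 and Atp5b, at 1654 and 2060 CPM in IKO 3 and 675.3 and 867.8 CPM in WT 4. The median over the 39 genes did overlap, through IKO 3. Without IKO 2 the median log2 fold change of the members was 0.48. The other genes with a mean log2 CPM above 7 had per-mouse medians of -0.38 to 0.25 in WT and 0.35 to 0.50 in IKO mice, with 0.37 in IKO 2. IKO 2 was the highest mouse in other sets as well, with a median of 1.495 over the complex I subunits (0.62 in the next mouse, WT 4) and of 0.59 over the genes of up to 2013 bases (0.38 in the next mouse, IKO 4).

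Among WT mice, the members did not vary as 1 block. WT 2 was the highest WT mouse for 15 of the 39 genes and the lowest for 8, among them Atp5a1, Atp5b, Uqcrc2 and Cox5a. WT 5 was the highest for 8 genes, which were Cycs, Cyc1, Uqcrc2, Cox5a, Atp5a1, Atp5b, Atp5f1 and Atp5g3. All 8 have gene models longer than 2013 bases, while 13 of the 15 genes highest in WT 2 and 11 of the 15 highest in WT 4 have shorter ones. This split by length was made after these values were seen and carries no test. The median of the 25 shorter genes was 0.40 in WT 2 and 0.39 in WT 4, against -0.29 to -0.005 in the other WT mice. The median of the 14 longer genes was -0.21 to 0.28 in WT and 0.39 to 1.33 in IKO mice, without overlap, whereas the shorter genes overlapped through IKO 3 at -0.09 and IKO 6 at 0.31. Of the longer genes 8 of 14 were called higher, and of the shorter 5 of 25, with median log2 fold changes of 0.77 and 0.68 and median standard errors of 0.23 and 0.27. Among genes other than the members, 5.57% were called higher up to 2013 bases. In the longer classes the share ran from 6.12% (up to 3320 bases) down to 1.95% (above 7136 bases).

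**Figure D5:**
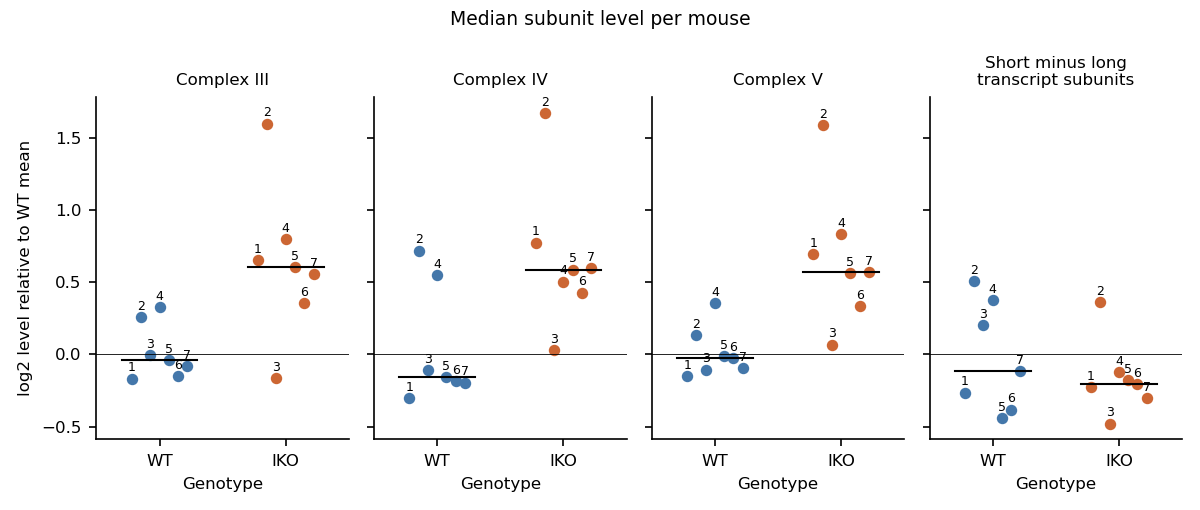
Median log2 level per mouse, relative to the WT mean of each gene, for complexes III, IV and V, and in the last panel the median of the 25 shorter minus that of the 14 longer subunit genes. Numbers are mouse numbers and lines the group medians. IKO 2 is highest for every complex and IKO 3 lies among the WT mice, and the last panel spans -0.44 to 0.51 in WT and -0.48 to 0.36 in IKO mice.

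Per length, complex IV genes led the order of abundance. In WT mice Cox6a1 averaged 689.7 ± 220.0 FPKM (SD, n = 7), Cox8a 652.7 ± 115.3, Cox4i1 385.3 ± 107.4 and Cox6b1 348.9 ± 120.5. Atp5b at 294.9 ± 92.1 and Atp5a1 at 292.4 ± 101.5 came next, and of these neighbors in the order, Cox8a and Cox4i1 differed by more than their SDs and the others did not. Cox6b2 at 8.0 ± 6.59 and Atp5l at 20.1 ± 2.43 closed the order. These values divide by the full gene model, which is 6443 bases for Atp5l and 545 for Cox8a, so rare long transcripts lower a gene's FPKM. Cox7a1 moved from rank 20 in WT to rank 9 in IKO mice, and Uqcrb from 12 to 21.

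The other respiratory genes gave a scale for these values. All 37 tested subunits of complex I named Nduf had a positive log2 fold change, with a median of 0.51, and 3 of them (8.11%) rose in edgeR, where 4.38% of all genes tested did. DESeq2 called 14 of them and 25 of the 40 members higher, and 8.57% of all genes tested. Of the 4 subunits of complex II, which is also the succinate dehydrogenase of the tricarboxylic acid cycle, 3 rose (Sdha, Sdhc and Sdhd), with a median of 0.74. Assembly factors insert cofactors and build the complexes without being part of them. Of 19 tested factors for complex IV none was called and the median was 0.27, of 6 for complex III none rose and 1 fell (Ttc19, log2 fold change -0.68, standard error 0.17, adjusted p = 0.025) with a median of 0.04, and of 3 for complex V none was called with a median of 0.19. Without adjustment, 4, 1 and 0 of these had a p under 0.05 in edgeR, against 4213 of all 13846 genes tested. DESeq2 called 2 for complex IV (Cox14 and Coa5, both higher), Ttc19 for complex III and 0 for complex V. Most of the assembly factors were less abundant than the subunits, at 0.976 to 83.1 CPM on average in WT.

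Of 11 tested regulators of nuclear respiratory genes none was called by edgeR, and the median log2 fold change was -0.14. In edgeR 2 of them had an unadjusted p under 0.05, against 4213 of all 13846 genes tested, and DESeq2 called 1 (Ppargc1b). Ppargc1a, the coactivator PGC-1α, was at -0.12 on the log2 scale (standard error 0.31, adjusted p = 0.82). Esrra, the receptor ERRα, which works with it, had 0.07 (standard error 0.25, adjusted p = 0.86), and Nrf1, a factor bound at many of these promoters, 0.07 (standard error 0.12, adjusted p = 0.74). Ppargc1b had 0.73 (standard error 0.27, adjusted p = 0.091). The 5 tested subunits of complexes III, IV and V that are encoded in mitochondrial DNA had positive log2 fold changes of 0.90 (mt-Cytb) and more. In edgeR 2 had an unadjusted p under 0.05, against 4213 of all 13846 genes tested. None of these 5 subunits was called by edgeR or DESeq2. Their summed level was 14077 to 152718 CPM in WT mice, highest in WT 3, and 552476 CPM in IKO 4 but 19611 to 43801 CPM in the other IKO mice. IKO 2, which had the highest nuclear levels, had the lowest of these IKO sums.

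To show sequence that these genes share, promoters of 250 bases before to 50 after the start were taken from RefSeq (GRCm38.p6). The promoter set held 32 of the 40 members, matched by symbol or synonym on the same chromosome. Atp5a1, a member that rose, was left out of the set by its chromosome and not by a failed match. No promoter was matched for Atp5mpl, Cox4i1, Cox6c, Cyc1, Uqcrb, Uqcrc2 or Uqcrq. Words of 5 motifs were searched on both strands. The core of the NRF1 motif, GCGCATGCG, was in the promoters of 7 of the 32 members (21.9%) and of 1.95% of 27025 genes. An ETS word bound by GABP, CCGGAAGT, was in 4 (Atp5h, Cox8a, Uqcr11 and Uqcrh) against 4.31%, the ERR word TCAAGGTCA in 1 (Atp5g3) against 0.466%, and the YY1 word AAGATGGCG in 2 (Atp5j and Atp5j2) against 1.64%. A direct repeat of AGGNCA with 1 base between, as PPARα binds with RXR, was in 0 of 32 against 0.451%. Such words are matches of letters, not measured binding, and a missing word says only that these letters are not in the window.

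The 7 stretches with the NRF1 word are given on the strand of the gene with the matched letters in capitals, which show the word or its reverse complement, and both where they overlap.
Cycs: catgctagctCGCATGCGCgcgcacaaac
Uqcrc1: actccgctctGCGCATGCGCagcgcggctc
Uqcr11: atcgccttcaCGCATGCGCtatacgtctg
Cox6a1: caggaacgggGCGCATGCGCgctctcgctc
Atp5g2: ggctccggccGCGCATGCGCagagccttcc
Atp5k: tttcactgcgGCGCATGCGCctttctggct
Atp5l: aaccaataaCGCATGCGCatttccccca

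They lie at chr6:50566612-50566640 on the minus strand (Cycs), chr9:108936668-108936697 on the plus strand (Uqcrc1), and, all on the minus strand, at chr10:80406808-80406836 (Uqcr11), chr5:115349101-115349130 (Cox6a1), chr15:102671070-102671099 (Atp5g2), chr5:108434430-108434459 (Atp5k) and chr9:44920965-44920992 (Atp5l). The first matched base is 61 bases before the start site in Cycs, 5 before it in Uqcr11 and 241 before it in Atp5l, and in Uqcrc1 it is base 31 of the transcript. Of these 7 genes 3 rose (Cycs, Uqcrc1 and Atp5l), with a median log2 fold change of 0.80. Of the 25 others in the promoter set 7 rose, with a median of 0.67. The ERR word in Atp5g3 reads as its reverse complement.
Atp5g3: tgttacaaagTGACCTTGAgcgtcttccc

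It lies at chr2:73911360-73911388 on the minus strand and begins 52 bases before the start.
The whole stretch before the Cycs start, chr6:50566570-50566819 on the minus strand, is shown for context, since Cycs was called higher without overlap and its promoter holds the NRF1 word.
Cycs upstream: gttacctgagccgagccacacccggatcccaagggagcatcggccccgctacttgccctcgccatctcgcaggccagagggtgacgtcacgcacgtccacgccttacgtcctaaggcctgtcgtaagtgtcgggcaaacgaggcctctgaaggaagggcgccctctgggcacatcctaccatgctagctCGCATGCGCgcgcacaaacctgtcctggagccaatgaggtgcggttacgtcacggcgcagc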

How the data were processed

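Total RNA of scraped ileum mucosa from 7 WT and 7 IKO mice was sequenced as 150-bp pairs after NEBNext library preparation. Per the submitters' notes, the authors aligned reads with HISAT2 2.0.5 (mm10) and counted them per gene with featureCounts 1.5.0-p3. The annotation and strand setting were not given in the sources used here. The deposited counts are raw whole numbers. The deposited FPKM equal counts per kilobase divided by DESeq2 (1.16.1) size factors times 1 constant, as checked on the values. Of the 40 members, 4 are overlapped on the opposite strand by a gene with more than 1% of their counts (Cox4i1, Cox6c, Atp5f1 and Atp5j, up to 15.5%), and reads of both cannot be told apart if strand was ignored. Pseudogene rows named after members held at most 146 counts, and reads lost to other copies are unknown.

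Genes passing filterByExpr were TMM-normalized and tested with edgeR 4.0.16 (glmQLFit, glmQLFTest, R 4.3.3), modeling genotype alone, with p-values adjusted by Benjamini-Hochberg across 13846 genes. The method was tested on simulated counts. Log2 levels add a prior count of 2. The alternatives were DESeq2 1.42.0, RLE normalization, mitochondrially encoded genes taken out, dropping the filter, requiring 10 counts in each sample, limma 3.58.1 on log2(FPKM + 1) or + 0.1 (genes above 0.5 FPKM in 7 or more samples, or unfiltered for + 1), a block for the replicate number, a loess trend on gene length as offsets, limma-voom with sample weights, IKO 4 and WT 3 left out, and each sample left out. Loess offsets on mean level and scaling by total counts were added after seeing the data.

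Named with full values were the members past the threshold, the catalytic and electron-carrying subunits, the c-ring genes, the isoform pairs, and the smallest and largest change in each complex. Members and lists were chosen with earlier results of these data known. Gene coordinates are those of the deposited table (mm10), and all 40 members are in GENCODE M21, 38 at the same coordinates.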

Additional observations from a re-analysis of the deposited data

Results flagged for a closer look

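Each of 86 groups of 7 mice was examined for a mouse far from the others, on the log2 scale and against Dixon's 95% limit. They were the 40 members and 3 medians over complexes in each genotype. In 8 groups 1 mouse passed the limit, where chance alone flags about 1 in 20 groups, or 4.3. In 7 of the 8 groups the mouse was IKO 2, and the genes were small subunits. For complex III, Uqcrq was at 1394 CPM in IKO 2 with 459.2 in the next mouse, Uqcr10 at 439.8 with 187.4, and Uqcr11 at 381.4 with 132.4. For complex IV, Cox8a was at 1113 CPM with 615.0 next, Cox6b1 at 858.4 with 427.4, and Cox5b at 651.1 with 268.3. For the c-ring, Atp5g1 was at 575.4 CPM with 206.7 next. None of these 7 genes passed the edgeR test between genotypes, while DESeq2 called Cox8a, Cox6b1 and Atp5g1 higher. In WT, Cox7b was at 341.0 CPM in WT 2, and the nearest mouse had 208.9.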

How the results depend on the processing

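Under 28 alternatives the median log2 fold change of the members stayed positive, and members stood at least 0.598 above the median of all genes except with the level trend removed, where the distance was 0.31. Alternatives that changed only the library scaling could hardly move the distance to the median of all genes. The number of members called higher, 13 in the edgeR fit, was 25 with DESeq2, 20 with limma-voom and sample weights, 8 with no filter on low counts, 6 without IKO 4 and WT 3, 0 with the trend on level removed and 1 with scaling by total counts. The share of all genes called higher, 4.38% in the edgeR fit, was 8.57%, 7.17%, 1.19%, 3.06%, 2.31% and 1.41% in these, and 1.63% with the block below. The number of members called higher ranged from 6 to 16 when 1 mouse was left out. Whether the sample numbers pair the mice is not stated. The deviations of same-numbered mice correlated at -0.31 to 0.23, with 1 of 7 above 0.1, which cannot exclude a shared litter or day. With the replicate number as a block the count of members called higher was 2 (Cox5a and Cox7a1), 0 for complex III and 0 for complex V, with 0 lower. For complex III (3), the count was 5 with DESeq2, and 0 with the level trend removed or with total counts. For complex IV (3) it was 7 with DESeq2, 8 with limma-voom, 0 with the level trend removed, 1 with total counts and 2 to 5 with 1 mouse left out. For complex V (6) it was 12 with DESeq2, 2 with no filter, 1 without IKO 4 and WT 3, 0 with the level trend removed, 0 with total counts and 1 to 7 with 1 mouse left out. The count called lower (1) was 0 with limma on log2(FPKM + 1), with and without its filter, without IKO 4 and WT 3 and with the level trend removed, 2 with total counts, and 0 to 1 with 1 mouse left out. With limma-voom the count was 1 but the gene was Atp5s (adjusted p = 0.040), not Cox6b2 (adjusted p = 0.12). The median of the members was 0.26 with the level trend removed and 0.29 with total counts, against 0.70. The log2 fold change of Uqcrb reversed, to -0.0024 with at least 10 counts in every sample, -0.17 with the length trend removed, -0.27 with the level trend removed, -0.30 with total counts, -0.14 without IKO 2, -0.043 without WT 7 and -0.027 without WT 1, and ranged up to 0.22 (without WT 2) when 1 mouse was left out. That of Cox7b was -0.0023 with the level trend removed. The cause of these differences was not tested. Fits with mice left out also have smaller groups, and the part of group size was not separated from that of the mouse. Depth limits Cox4i2, Cox6a2 and Cox8b, with 43 to 58 counts in all.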
